A study of Sus scrofa with 30 samples.

Results

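A set of 9 genes that regulate the trophectoderm, the outer epithelium of the blastocyst, was followed through pig oocytes and early embryos by the histone marks on their chromatin. They were CDX2, EOMES, TEAD3, TEAD4, GATA2, GATA3, TFAP2A, TFAP2C and HAND1, which is 9 of the 19484 protein-coding genes annotated on chromosomes 1 to 18 and X. They were picked by name for their known role, with earlier results of these data known. Each was described by the length of DNA under deposited peaks within 5 kb and within 50 kb of its ends. The assay, ULI-NChIP-seq, sequences native chromatin pulled down from small cell numbers with an antibody, here against trimethylated lysine 4 (H3K4me3) or lysine 27 (H3K27me3) of histone H3. H3K4me3 was profiled in germinal vesicle (GV) and metaphase II (MII) oocytes and in 1-cell, 2-cell, 4-cell, 8-cell, morula and blastocyst embryos made by fertilisation in vitro. It was also profiled in 4-cell embryos grown from zygotes injected with small interfering RNA against KDM5B and KDM5C, the group siKDM5BC. H3K27me3 was profiled at MII and at the 2-cell, 4-cell, 8-cell, morula and blastocyst stages. Every group held 2 libraries, 30 in all, of which 18 were H3K4me3 and 12 were H3K27me3. No library with a control siRNA was among the labels, so siKDM5BC was set against uninjected 4-cell embryos. Blastocysts were not separated into trophectoderm and inner cell mass, and no source used here gives the number of oocytes or embryos in a library.

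The trophectoderm gives rise to the placenta. In the mouse, outer cells of the morula keep the Hippo pathway off, so that the coactivator YAP1 enters the nucleus, binds TEAD4 and switches on CDX2 and GATA3. H3K4me3 marks active and poised promoters and is removed by demethylases of the KDM5 family, whereas H3K27me3 is laid down by Polycomb repressive complex 2 and is found at silenced developmental genes.

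All coordinates are those of the pig assembly Sscrofa11.1 (susScr11), and gene bounds are those of RefSeq. Strand was not given for the genes, and in each library the value is that of whichever gene end was better covered. The window at an end was 10001 bp, which is the highest value the 5 kb measure can take. CDX2 (gene ID 100127132) lies at chr11:5339727-5346081, with FLT3, PDX1 and URAD having an end within 50 kb. EOMES (100622125) lies at chr13:14209590-14216184 with no other coding gene that near. TEAD3 (654299) lies at chr7:31337890-31351452 beside PPARD, RPL10A and TULP1, and TEAD4 (100152085) at chr5:67130392-67167579 beside TSPAN9 and TULP3. GATA2 (396912) lies at chr13:71981139-71997626 beside DNAJB8 and EEFSEC, and GATA3 (733631) at chr10:63367684-63397977 beside TAF3. TFAP2A (100049668) lies at chr7:7221654-7244626, with the uncharacterised gene LOC106504315 within 5 kb. TFAP2C (100144525) lies at chr17:57164400-57174923 with no other coding gene within 50 kb. HAND1 (541594) lies at chr16:68679977-68683346 beside GALNT10 and SAP30L. Peaks within 50 kb can therefore belong to a neighbour, except at EOMES and TFAP2C.

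Libraries differed in how much of the genome their peaks covered. H3K4me3 lists of the stage series covered 31.6 Mb (4-cell replicate 2) to 141.6 Mb (1-cell replicate 2), and both siKDM5BC lists covered more, 178.8 and 164.3 Mb. H3K27me3 lists covered 1.28 Mb (2-cell replicate 2) to 108.9 Mb (blastocyst replicate 2). Read totals are not in the lists, so depth is unknown, and a window with no peak says only that none was called there. Of 7 oocyte genes (zona pellucida and oocyte growth factor genes among them), 7 and 5 had an H3K4me3 peak within 5 kb in GV oocytes, and 5 and 5 had one in blastocysts. Of 8 cumulus and granulosa genes, 7 and 5 had one in GV oocytes, 3 and 6 in MII oocytes and 7 and 7 in blastocysts. Their summed covered length was 14630 to 21443 bp in GV, 6371 to 11192 bp in MII and 10188 to 12423 bp in blastocyst libraries. Of all coding genes, 85.1% and 80.4% had an H3K4me3 peak within 5 kb in GV, 75.2% and 83.4% in MII and 84.0% and 84.0% in blastocyst libraries. What part cells of other types had in the results was not tested.

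H3K4me3 near the 9 genes did not follow 1 course. In whole embryos and oocytes, fewer cells with the mark and less of the mark per cell cannot be told apart. The labels do not say that the 2 libraries of a group came from separate collections, so p-values measure the spread between these libraries, which may be technical. With limma's moderated F test over the 8 stages and Benjamini-Hochberg (BH) adjustment over the 17206 genes tested, 8 of the 9 changed within 5 kb, against 60.3% of all genes tested. GATA3 missed the threshold at 5 kb (adjusted p = 0.0564) and passed it within 50 kb (adjusted p = 0.0156, limma). All 9 passed the filter on low values, a mean of 250 bp over the libraries of the mark.

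**Figure D1:**
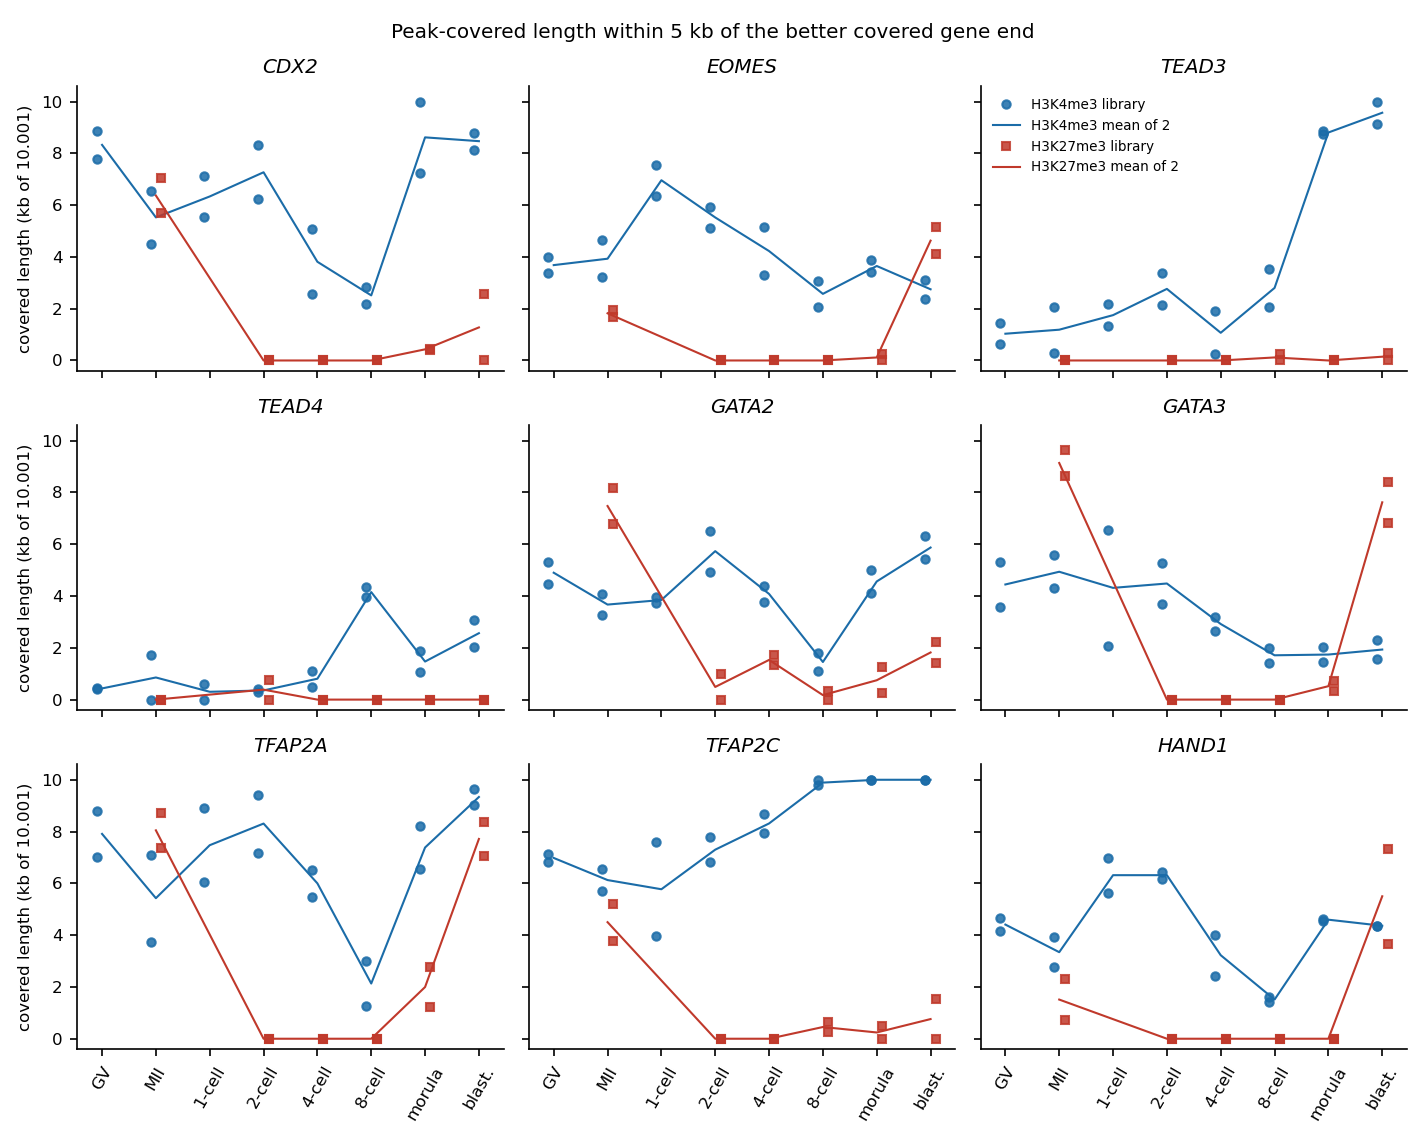
Peak-covered length within 5 kb of the better covered gene end (kb, y axis) by stage (x axis), with 1 point per library and lines through the mean of 2 libraries. Blue circles are H3K4me3 and red squares H3K27me3, which was not profiled in GV oocytes or 1-cell embryos, so its line passes over the 1-cell stage. TEAD3 and TFAP2C reached 8739 bp or more of H3K4me3 in each morula and blastocyst library, and H3K27me3 was absent from most genes between the 2-cell and 8-cell stages.

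TEAD3 and TEAD4 encode TEA-domain proteins, the DNA-binding partners of YAP1. TEAD3 had H3K4me3 over 1431 and 636 bp within 5 kb in GV oocytes, 304 and 2073 bp in MII oocytes, 1340 and 2162 bp at the 1-cell, 3385 and 2144 bp at the 2-cell and 1904 and 235 bp at the 4-cell stage. It then had 2060 and 3545 bp at the 8-cell stage, 8739 and 8870 bp in morulae and 10001 and 9134 bp in blastocysts. The 4 morula and blastocyst libraries lay above all 12 earlier ones, with no overlap. Within each library TEAD3 ranked at the 98.8th to 99.7th percentile of coding genes in morulae and blastocysts, and between the 24.2nd and 88.3rd before.

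TEAD4 had the least H3K4me3 of the 9 at most stages. It had 467 and 397 bp in GV, 1709 and 0 bp in MII, 0 and 604 bp in 1-cell and 505 and 1109 bp in 4-cell libraries, and it averaged 354 bp over the 2-cell libraries. It peaked at the 8-cell stage with 4347 and 3957 bp, against 1065 and 1875 bp in morulae and 2040 and 3089 bp in blastocysts. The 8-cell libraries were the highest of the series for TEAD4, at a stage where CDX2, EOMES, GATA2, TFAP2A and HAND1 had their lowest means. At most 9.40% of the TEAD4 gene body was covered in any H3K4me3 library (8-cell replicate 1).

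CDX2 and EOMES encode a homeobox and a T-box factor that the mouse trophoblast needs. CDX2 was among the best covered genes of the oocyte, with 8878 and 7774 bp in GV, 4496 and 6557 bp in MII, 5553 and 7115 bp in 1-cell and 8316 and 6220 bp in 2-cell libraries. It had 5074 and 2549 bp at the 4-cell stage, 2192 and 2835 bp at the 8-cell stage, 10001 and 7232 bp in morulae and 8145 and 8794 bp in blastocysts. Its 4-cell and 8-cell libraries did not overlap those of GV oocytes, 1-cell or 2-cell embryos, morulae or blastocysts, and 1 MII library (4496 bp) lay below a 4-cell library (5074 bp). CDX2 ranked at the 96.3rd percentile or above in every stage library except 4-cell replicate 2 (89.3rd) and the 8-cell libraries (72.8th and 80.6th).

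EOMES was highest in early cleavage. It had 4004 and 3362 bp in GV, 3216 and 4644 bp in MII, 6370 and 7551 bp in 1-cell, 5943 and 5104 bp in 2-cell and 5156 and 3295 bp in 4-cell libraries. It had 2080 and 3065 bp at the 8-cell stage, 3415 and 3883 bp in morulae and 2381 and 3118 bp in blastocysts. The 1-cell libraries lay above all others, the morula libraries within the range of the GV and MII ones, and the 8-cell and blastocyst libraries below that range. While the covered length near EOMES was short in blastocysts, the fold enrichment of its strongest peak was the highest among the 9 genes there, 12.9 and 13.2, against 3.45 and 3.75 in MII oocytes; these are the caller's own values and are not comparable across lists as levels.

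TFAP2A and TFAP2C encode AP-2 factors of the trophoblast. TFAP2C covered 6827 and 7136 bp in GV, 5711 and 6544 bp in MII, 3962 and 7584 bp in 1-cell and 6812 and 7791 bp in 2-cell libraries. It had 8681 and 7946 bp at the 4-cell stage, 9782 and 10001 bp at the 8-cell stage and the full 10001 bp in both morula and both blastocyst libraries. Every library from the 4-cell stage on lay above every earlier one, and TFAP2C ranked at the 99.6th percentile or above in all 8 of them. The window was full in morulae and blastocysts, so a further gain could not be seen at 5 kb.

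TFAP2A had 8809 and 7012 bp in GV, 3748 and 7108 bp in MII, 6044 and 8904 bp in 1-cell, 7192 and 9427 bp in 2-cell and 6514 and 5487 bp in 4-cell libraries. It had 1270 and 2994 bp at the 8-cell stage, 6549 and 8221 bp in morulae and 9014 and 9658 bp in blastocysts. The 8-cell libraries were the lowest of the series, below the other 14, and the blastocyst libraries overlapped the 2-cell ones.

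GATA2 and GATA3 encode zinc-finger factors that act early in the mouse trophectoderm. GATA2 had 5319 and 4481 bp in GV, 3279 and 4061 bp in MII, 3732 and 3961 bp in 1-cell, 4938 and 6528 bp in 2-cell and 4395 and 3767 bp in 4-cell libraries. It had 1093 and 1813 bp at the 8-cell stage, 4103 and 5023 bp in morulae and 6315 and 5429 bp in blastocysts. As for TFAP2A, the 8-cell libraries were the lowest, and the blastocyst libraries overlapped those of the 2-cell stage.

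GATA3 had 5324 and 3569 bp in GV, 4297 and 5578 bp in MII, 2086 and 6544 bp in 1-cell and 5267 and 3701 bp in 2-cell libraries. At its ends it had 3178 and 2661 bp at the 4-cell stage, 1994 and 1429 bp at the 8-cell stage, 1457 and 2023 bp in morulae and 1557 and 2310 bp in blastocysts. The 6 libraries from the 8-cell stage on all lay below the 4-cell ones, but the same stages had long peaks inside the gene, described below.

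HAND1 encodes a basic helix-loop-helix factor of trophoblast differentiation in the mouse. It had 4159 and 4658 bp in GV, 2766 and 3920 bp in MII, 5647 and 6986 bp in 1-cell, 6179 and 6454 bp in 2-cell and 4025 and 2426 bp in 4-cell libraries. It had 1625 and 1401 bp at the 8-cell stage, 4638 and 4557 bp in morulae and 4355 and 4369 bp in blastocysts. The 1-cell and 2-cell libraries were the highest and the 8-cell ones the lowest.

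**Figure D2:**
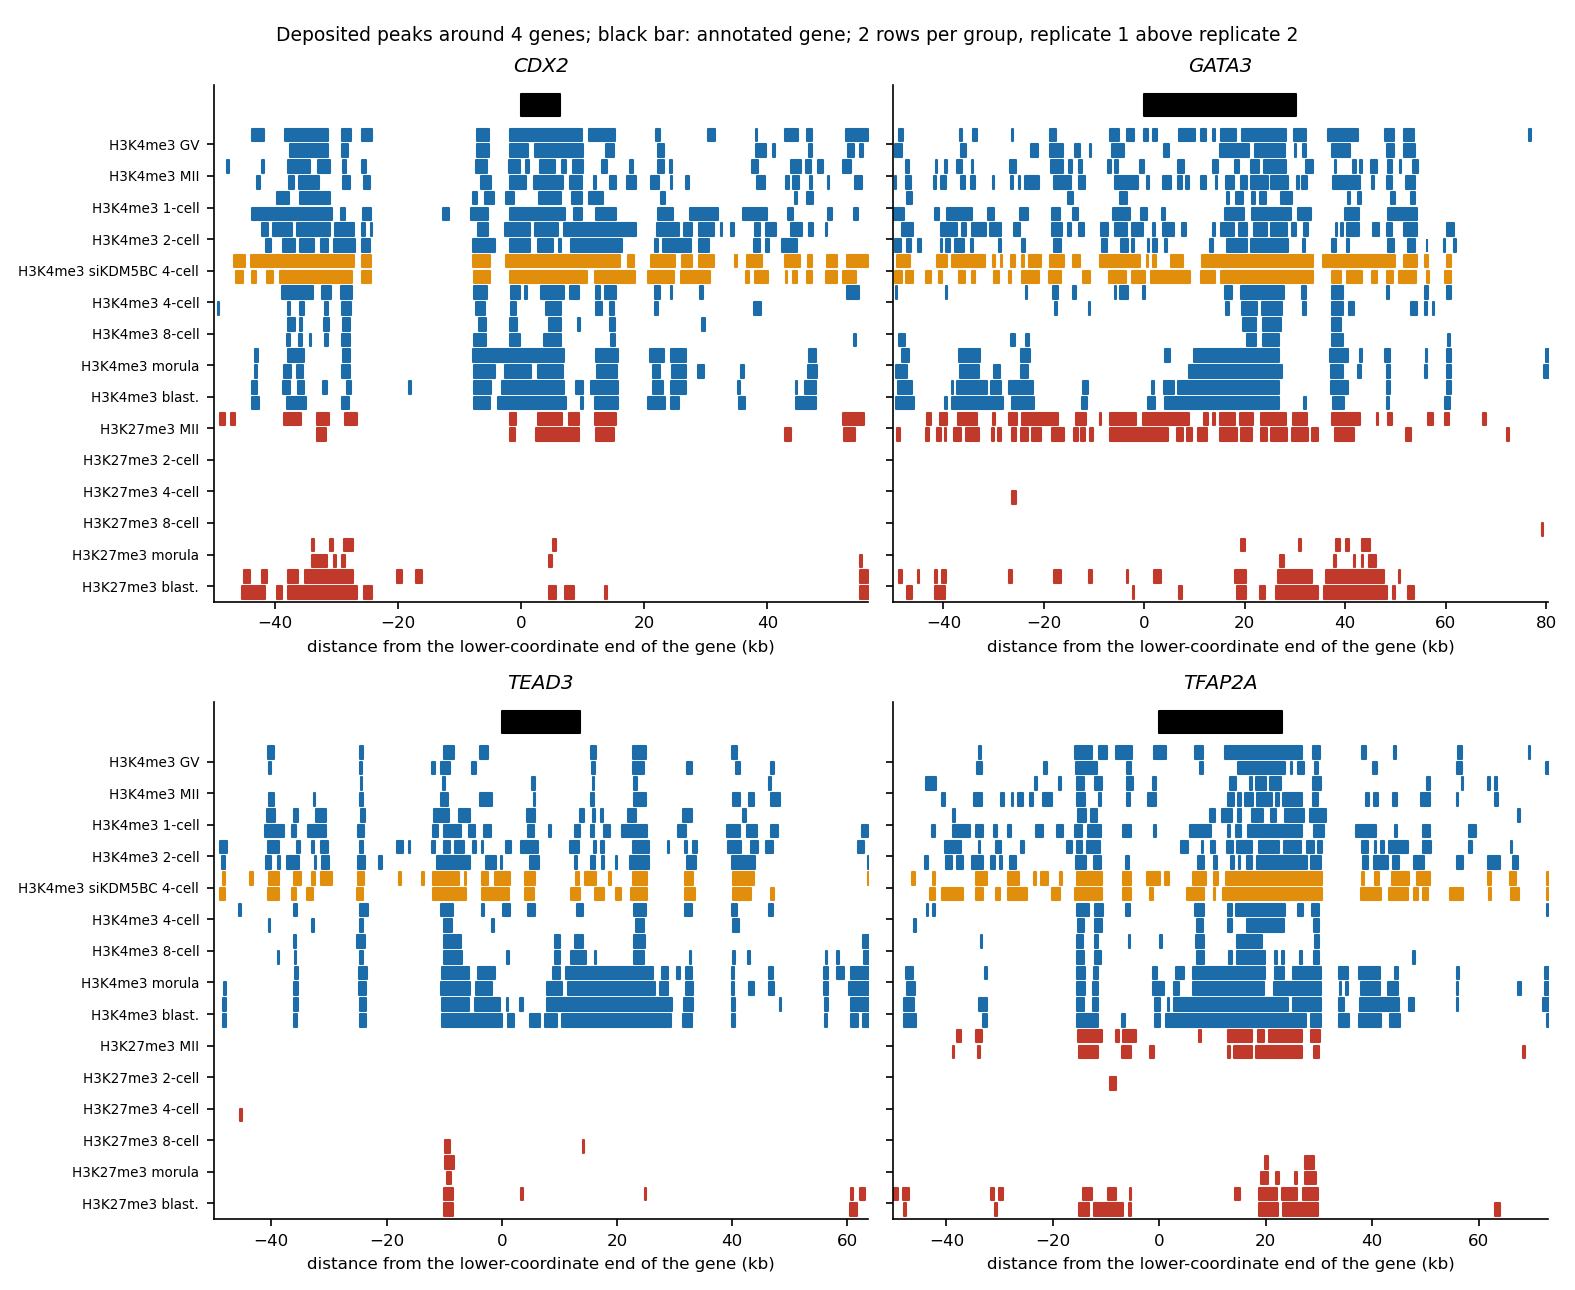
Deposited peaks around CDX2, GATA3, TEAD3 and TFAP2A as distance from the lower-coordinate end of each gene (kb, x axis), with 2 rows per group, replicate 1 above replicate 2. Blue is H3K4me3, orange H3K4me3 after siKDM5BC and red H3K27me3, and the black bar is the annotated gene. H3K4me3 filled much of the GATA3 gene body in morulae and blastocysts while the H3K27me3 peaks of blastocysts lay mostly to its higher-coordinate side, and H3K27me3 rows were empty or nearly so from the 2-cell to the 8-cell stage.

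In blastocysts the H3K4me3 peaks of 6 of the genes were 9995 bp or wider in both libraries, and those of EOMES, HAND1 and TEAD4 were not. At GATA3 the widest peak ran over chr10:63374440-63394403 in replicate 1 and chr10:63371759-63394520 in replicate 2, that is 19964 and 22762 bp. Both lay wholly within the gene, where 73.7% and 79.7% of the gene body was covered, against 33.0% and 26.1% at the 4-cell stage and 29.8% and 45.8% in MII oocytes. The gene body value was higher in both blastocyst libraries than in any 4-cell or MII library, unlike the value at the gene ends.

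At TEAD3 the widest peak of blastocysts ran over chr7:31345755-31367502 and chr7:31348285-31367348, from inside the gene to beyond its higher-coordinate end. It measured 21748 and 19064 bp, against 1155 and 235 bp for the widest peak at the 4-cell stage. At TFAP2A the widest peak measured 21458 and 26446 bp in blastocysts, against 9231 and 7016 bp at the 4-cell stage. At GATA2 it measured 17585 and 13832 bp in blastocysts, against 4084 and 3143 bp at the 4-cell stage. TFAP2C was wide earlier, with a widest peak of 11857 and 11340 bp at the 8-cell stage and 15593 and 15512 bp in morulae. The share of all genes with a wider peak in blastocysts than at the 4-cell stage was not counted, so these widths are descriptions only. The blastocyst lists covered 116.3 and 119.8 Mb of the genome, against 56.4 and 31.6 Mb for the 4-cell lists. The widest peak at HAND1 measured 3169 and 3365 bp in blastocysts.

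**Figure D3:**
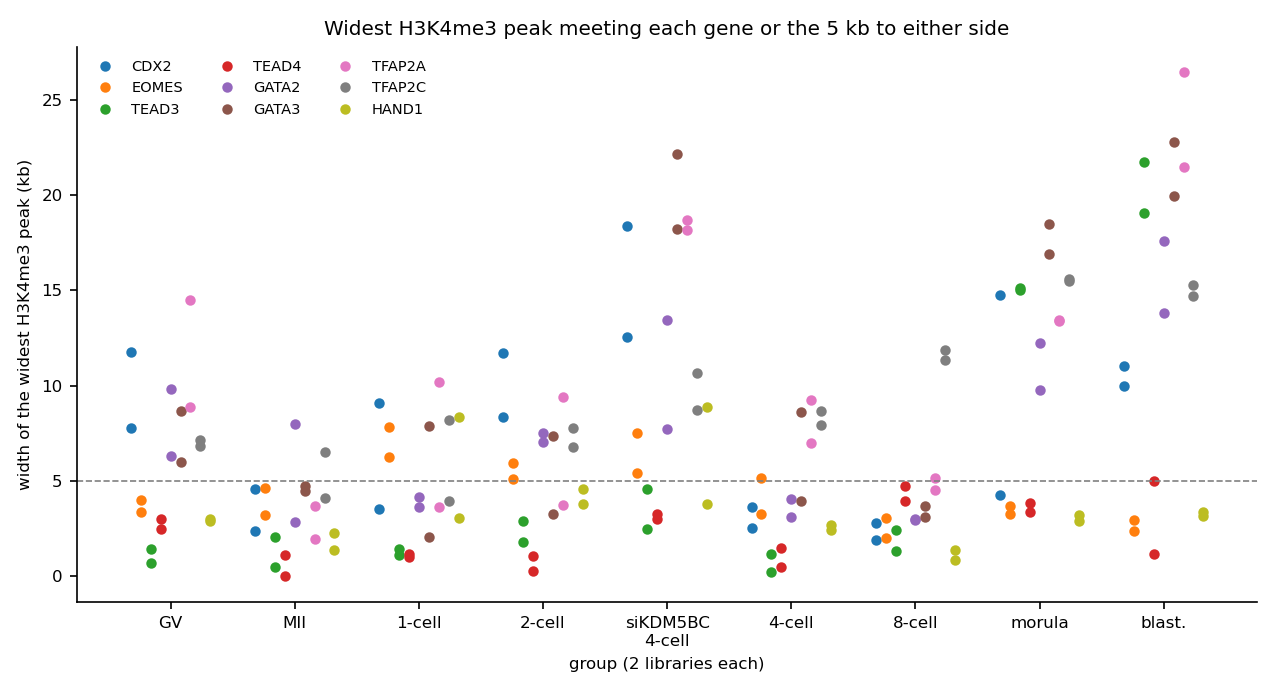
Width of the widest H3K4me3 peak that met each gene or the 5 kb to either side of it (kb, y axis) in the 9 H3K4me3 groups (x axis), 1 point per gene and library. The dashed line marks 5 kb. In blastocysts 6 and 7 genes per library had a peak that wide near an end, against 2 or fewer in MII oocytes.

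Blastocysts were compared with MII oocytes to ask how the oocyte's H3K4me3 differs from that of the embryo with a trophectoderm. TEAD3 averaged 9567.5 bp within 5 kb in blastocysts and 1188.5 bp in MII oocytes, a difference of 8379 ± 905 bp (SE; limma, BH-adjusted p = 4.86e-06). TFAP2C rose by 3873.5 bp (adjusted p = 0.00668, limma), TFAP2A by 3908 bp (0.0225), TEAD4 by 1710 bp (0.0245) and GATA2 by 2202 bp (0.0442), although its rank within a library differed by -3.88 percentile points. Of the 9 genes, 5 rose, beside 39.8% of all genes tested, and GATA3 alone fell, by 3004 ± 1145 bp at its ends (adjusted p = 0.0425, limma), beside 4.7% of all genes. The median difference was 2202 bp over the 9 genes and 1263.5 bp over all genes tested.

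CDX2 averaged 8469.5 bp in blastocysts and 5526.5 bp in MII oocytes (adjusted p = 0.0587, limma), which did not pass the threshold. EOMES averaged 2749.5 bp in blastocysts and 3930 bp in MII oocytes (0.337), and HAND1 4362 bp in blastocysts and 3343 bp in MII oocytes (0.364), and neither passed. The GATA3 and GATA2 calls did not hold when any 1 of the 4 libraries was left out, and 3 calls were left without MII replicate 1 or blastocyst replicate 1 and 2 without blastocyst replicate 2. The GATA3 difference was positive within 50 kb (14097 bp, adjusted p = 0.156, limma) and over the whole gene with 5 kb to either side (20.7 percentage points, 0.0884). On the scale of ranks within a library, which sets aside how much each list covers, TEAD3 rose by 54.8 percentile points, beside 17.3% of all genes tested, while GATA3 fell by 61.6 and EOMES fell by 40.2, beside 17.5%, and no other of the 9 passed.

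Blastocysts were next set against 4-cell embryos, the stage at which the pig embryo begins to transcribe its own genome. TEAD3 averaged 9567.5 bp in blastocysts and 1069.5 bp at the 4-cell stage, a difference of 8498 ± 905 bp (SE; limma, adjusted p = 5.05e-06). CDX2 averaged 8469.5 bp in blastocysts and 3811.5 bp at the 4-cell stage, a difference of 4658 ± 1214 bp (adjusted p = 0.00802, limma). TEAD4 rose by 1757.5 ± 578 bp (adjusted p = 0.0299, limma). Those 3 of 9 rose, beside 29.3% of all genes tested, and no gene of the 9 fell, beside 0.267%.

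Within 50 kb, the window that takes in the long peaks, TEAD3, TEAD4, GATA2, GATA3, TFAP2A and TFAP2C rose, 6 of 9 beside 45% of all genes tested. TFAP2C averaged 43595.5 bp in blastocysts and 13329.5 bp at the 4-cell stage within 50 kb (adjusted p = 0.000168, limma), and GATA3 averaged 44904.5 bp in blastocysts and 15998.5 bp at the 4-cell stage (0.00724). CDX2 averaged 30203.5 bp in blastocysts and 16938 bp at the 4-cell stage within 50 kb, short of the threshold (0.163). Over the whole gene with 5 kb to either side, the 7 genes other than EOMES and HAND1 rose, beside 37.3%. On ranks within a library TEAD3 rose by 62.2 percentile points, beside 8.57% of all genes tested, and GATA3 fell by 51.6 and EOMES fell by 42.3, beside 7.01%. Leaving out 4-cell replicate 2 or blastocyst replicate 2 left 1 call at 5 kb, TEAD3, which kept its call in all 13 alternatives run for it.

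From the 2-cell to the 4-cell stage the covered length averaged less for 7 of the 9 genes, of which GATA2, GATA3, TFAP2A and EOMES had a positive difference on ranks within a library, and a positive difference in covered length was found for 19.9% of all genes tested. HAND1 averaged 3225.5 bp at the 4-cell stage and 6316.5 bp at the 2-cell stage, a difference of -3091 ± 887 bp (SE; limma, adjusted p = 0.0338). It was the 1 gene of the 9 to fall within 5 kb, beside 11.5% of all genes tested, and none rose, beside 0.244%. CDX2 averaged 3811.5 bp at the 4-cell stage and 7268 bp at the 2-cell stage (adjusted p = 0.0734, limma). Within 50 kb TEAD3, CDX2 and HAND1 fell (adjusted p = 0.00915, 0.0124 and 0.0355, limma), 3 of 9 beside 39% of all genes tested, and over the whole gene with 5 kb to either side CDX2 and HAND1 fell, beside 20.9%. The HAND1 call at 5 kb was lost without either 2-cell library or without 4-cell replicate 2, and the 4-cell libraries covered 56.4 and 31.6 Mb of the genome, against 128.4 and 107.8 Mb for the 2-cell ones. What part that difference had in the result was not tested.

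Embryos injected with siKDM5BC asked what happens to H3K4me3 at the 4-cell stage when KDM5B and KDM5C are targeted. GATA3 had 8249 and 8229 bp of H3K4me3 within 5 kb in siKDM5BC embryos, against 3178 and 2661 bp in 4-cell embryos. CDX2 had 10001 and 9299 bp in siKDM5BC embryos, against 5074 and 2549 bp in 4-cell embryos. HAND1 had 6123 and 7739 bp in siKDM5BC embryos, against 4025 and 2426 bp in 4-cell embryos. The 2 groups did not overlap for any of these 3 genes.

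TFAP2A filled its window in both siKDM5BC libraries, 10001 and 10001 bp, against 6514 and 5487 bp in 4-cell embryos. TEAD3 had 4483 and 5482 bp in siKDM5BC embryos, against 1904 and 235 bp in 4-cell embryos, and TEAD4 had 3371 and 2676 bp in siKDM5BC embryos, against 505 and 1109 bp in 4-cell embryos. These 3 genes had no overlap between groups either. EOMES had 5501 and 7678 bp in siKDM5BC embryos, against 5156 and 3295 bp in 4-cell embryos. GATA2 had 5556 and 6146 bp in siKDM5BC embryos, against 4395 and 3767 bp in 4-cell embryos. TFAP2C had 8715 and 9609 bp in siKDM5BC embryos, against 8681 and 7946 bp in 4-cell embryos. All 9 genes were thus higher in both siKDM5BC libraries than in both 4-cell libraries, TFAP2C by the smallest margin, and so were 79.2% of all genes tested; on ranks within a library the differences of GATA2, TFAP2A, TFAP2C, EOMES and HAND1 were negative.

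By limma, 6 of the 9 rose, beside 38.5% of all genes tested, and none fell, beside 0.0581%. The differences were 5838.5 ± 1214 bp for CDX2 (SE; adjusted p = 0.00197, limma), 5319.5 ± 1145 bp for GATA3 (0.00246), 3913 ± 905 bp for TEAD3 (0.00374) and 3705.5 ± 887 bp for HAND1 (0.00459). TEAD4 rose by 2216.5 ± 578 bp (0.0076) and TFAP2A by 4000.5 ± 1299 bp (0.0237), although on ranks within a library TFAP2A and HAND1 differed by -0.045 and -1.32 percentile points. EOMES (2364 bp, 0.0646), GATA2 (1770 bp, 0.105) and TFAP2C (848.5 bp, 0.51) did not pass. The median difference was 3705.5 bp over the 9 genes and 1521 bp over all genes tested, of which 94.5% had a positive difference.

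Within 50 kb 8 of 9 rose, beside 62.5% of all genes tested, and EOMES missed the threshold (adjusted p = 0.0503, limma). CDX2 had 58954 and 53499 bp within 50 kb in siKDM5BC embryos, against 23105 and 10771 bp in 4-cell embryos, and GATA3 had 67118 and 56307 bp in siKDM5BC embryos, against 18193 and 13804 bp in 4-cell embryos. The widest peak at CDX2 measured 18385 and 12542 bp in siKDM5BC embryos, against 3668 and 2549 bp in 4-cell embryos. At GATA3 it measured 22137 and 18203 bp in siKDM5BC embryos, against 8601 and 3948 bp in 4-cell embryos, and it reached past the higher-coordinate end of the gene in both siKDM5BC libraries but in neither 4-cell or blastocyst library.

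The siKDM5BC lists covered 178.8 and 164.3 Mb of the genome, against 56.4 and 31.6 Mb for the 4-cell lists. They also hold 1212 and 1087 peaks on unplaced sequences, against 0 and 0 in the 4-cell lists, and what part the making of the lists had was not tested. On ranks within a library none of the 9 genes passed limma's threshold, beside 2.96% of all genes higher and 0.721% lower, and TEAD3 had the largest difference (36.9, adjusted p = 0.173). With 4-cell replicate 2 left out, 3 calls stayed, those of CDX2, GATA3 and TEAD4. What part the injection itself had in these differences cannot be told apart from that of the siRNA.

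**Figure D4:**
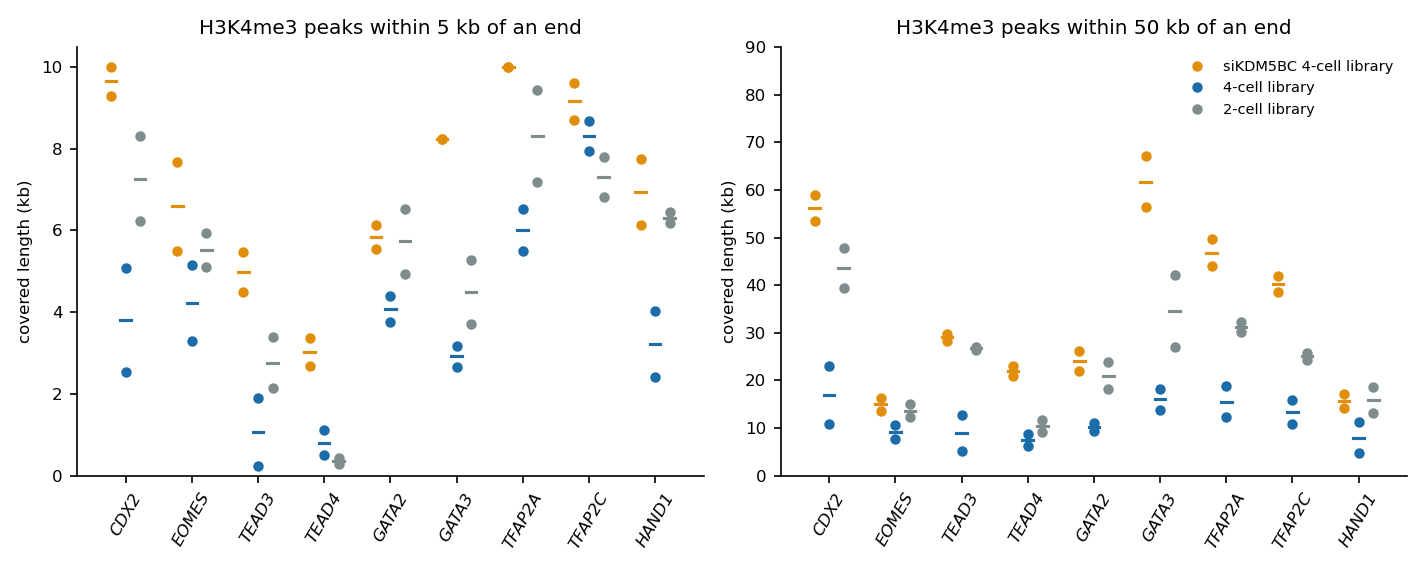
H3K4me3-covered length (kb, y axis) within 5 kb (left) and 50 kb (right) of the better covered end of each gene (x axis) in siKDM5BC 4-cell, 4-cell and 2-cell libraries, with 1 point per library and a dash at the mean of 2. At 5 kb all siKDM5BC points lie above the 4-cell points of the same gene. CDX2, GATA3, TEAD3, TEAD4, TFAP2A and TFAP2C in siKDM5BC embryos also lie above both 2-cell points in both windows. The median over all coding genes (not drawn) was likewise higher in both siKDM5BC libraries than in both 2-cell libraries, in both windows.

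At CDX2, GATA3, TEAD3, TEAD4, TFAP2A and TFAP2C both siKDM5BC libraries also lay above both 2-cell libraries. So did the median over all coding genes within 5 kb, at 2827 and 2597 bp in siKDM5BC, against 2114.5 and 1944 bp in 2-cell libraries. The 2-cell libraries had 8316 and 6220 bp at CDX2 and 5267 and 3701 bp at GATA3. At HAND1, GATA2 and EOMES the siKDM5BC and 2-cell libraries overlapped. The siKDM5BC lists covered 178.8 and 164.3 Mb of the genome, against 128.4 and 107.8 Mb for the 2-cell lists. These differences were not tested, and the share over all genes was not counted. The comparisons of blastocysts, siKDM5BC and 2-cell embryos with 4-cell embryos share the same 4-cell libraries, so they are not independent of one another. For TEAD3 the difference from the 4-cell stage within 5 kb was 8498 bp in blastocysts and 3913 bp in siKDM5BC embryos. For GATA3 it was -986 bp in blastocysts (adjusted p = 0.586, limma) and 5319.5 bp in siKDM5BC embryos. Within 50 kb GATA3 rose in both, by 28906 bp in blastocysts (adjusted p = 0.00724, limma).

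**Figure D5:**
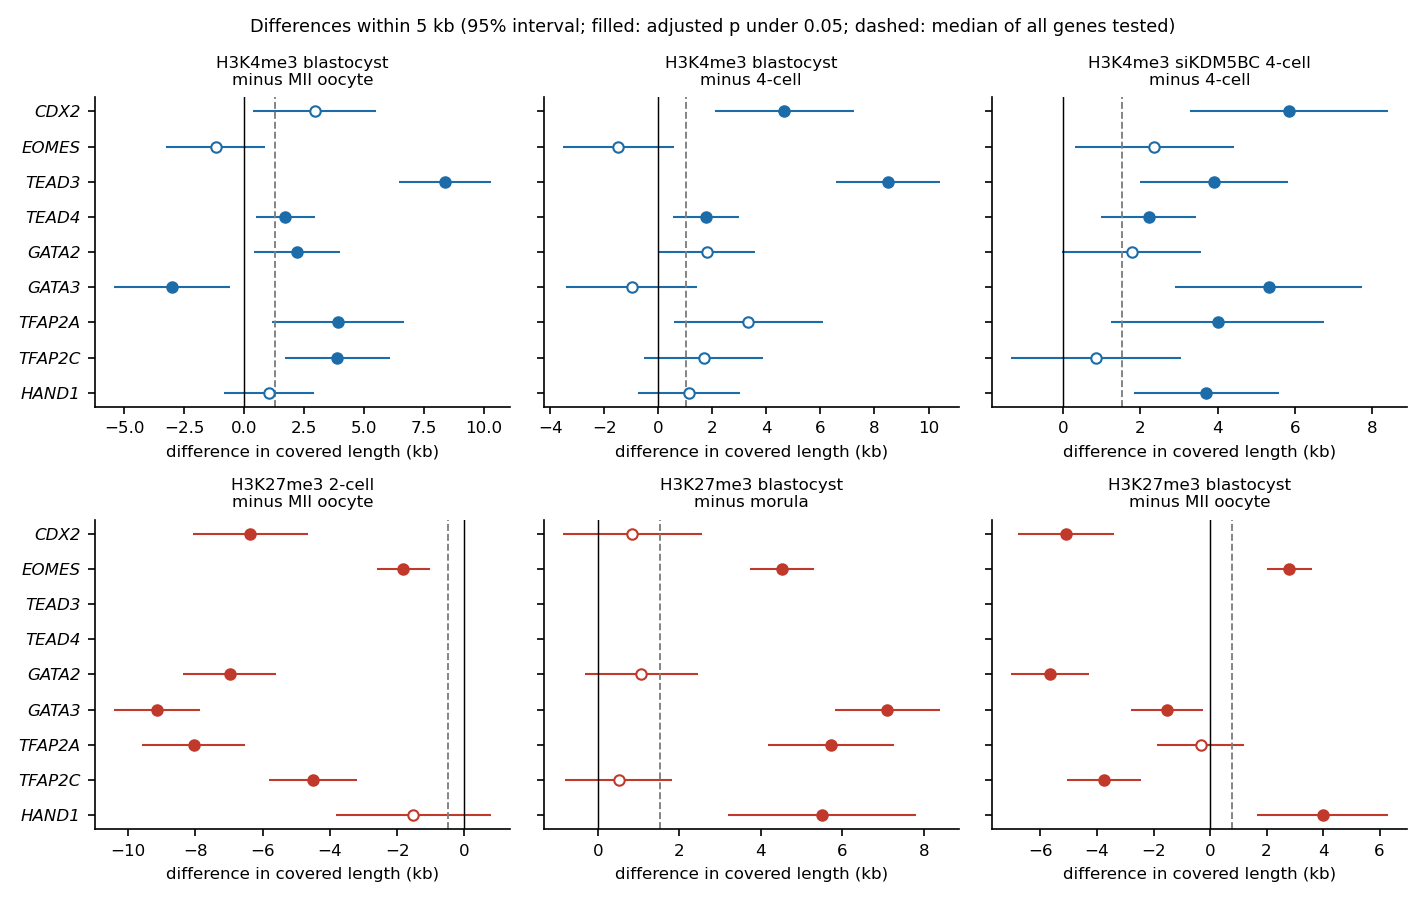
Differences in covered length within 5 kb (kb, x axis) for each gene (y axis) in 6 comparisons, H3K4me3 in the upper row and H3K27me3 in the lower, with 95% intervals from limma. Filled points have an adjusted p under 0.05, the solid line is 0 and the dashed line is the median of all genes tested. TEAD3 and TEAD4 have no point for H3K27me3 because their mean was under 250 bp. TEAD3 lies farthest to the right for blastocyst minus 4-cell, and CDX2 and GATA3 for siKDM5BC minus 4-cell.

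H3K27me3 covered 7 of the 9 genes in MII oocytes and was nearly gone from them by the 2-cell stage. Of all coding genes, 26.5% and 25.2% had an H3K27me3 peak within 5 kb in the MII libraries, and 2.67% and 1.86% in the 2-cell libraries. GATA3 had 8631 and 9645 bp within 5 kb in MII, TFAP2A 7364 and 8733 bp, GATA2 6796 and 8156 bp and CDX2 5700 and 7038 bp. TFAP2C had 5216 and 3787 bp, HAND1 2318 and 707 bp and EOMES 1692 and 1952 bp in MII, whereas TEAD3 and TEAD4 had 0 bp in both libraries. The 4 best covered genes ranked at the 97.2nd percentile or above of all coding genes in both MII libraries.

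At the 2-cell stage GATA2 (978 bp) and TEAD4 (770 bp) had a peak within 5 kb in replicate 1, and no gene of the 9 had one in replicate 2. GATA2 was the 1 gene with H3K27me3 in both 4-cell libraries, 1347 and 1718 bp, and the other 8 genes had none there. In 8-cell embryos TFAP2C had 636 and 269 bp, TEAD3 and GATA2 had 234 and 348 bp in replicate 2 alone, and the other 6 genes had none.

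By limma, 6 of the 7 genes tested fell at the 2-cell stage relative to MII oocytes, beside 38% of the 5829 genes tested for this mark, and none rose, beside 0%. TEAD3 and TEAD4 stayed under the filter of a mean of 250 bp. CDX2, GATA3, TFAP2C, EOMES and HAND1 passed it only through their MII or blastocyst libraries. At such genes a fall from MII oocytes or a rise to blastocysts was therefore partly fixed in advance. GATA3 averaged 0 bp in 2-cell embryos and 9138 bp in MII oocytes, a difference of -9138 ± 560 bp (SE; adjusted p = 3.39e-06, limma). TFAP2A fell by 8048.5 bp (adjusted p = 1.76e-05, limma), GATA2 fell by 6987 bp (2.22e-05), CDX2 fell by 6369 bp (0.000137), TFAP2C fell by 4501.5 bp (0.000228) and EOMES fell by 1822 bp (0.00243). HAND1 averaged 0 bp in 2-cell embryos and 1512.5 bp in MII oocytes and did not pass (0.359). The median difference was -6369 bp over the 7 genes and -486 bp over all genes tested. The 2-cell lists covered 2.01 and 1.28 Mb of the genome, against 71.4 and 61.9 Mb for MII, and the part of peak calling in so few peaks was not tested. On ranks within a library the calls of CDX2, GATA3 and TFAP2A held, 3 of 7 beside 21.5% of all genes tested, and the other 4 did not pass. With array weights the GATA2 difference did not pass (adjusted p = 0.689, limma).

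In blastocysts H3K27me3 covered several of the genes again. GATA3 had 6817 and 8421 bp in blastocysts, against 322 and 715 bp in morulae, and TFAP2A had 7046 and 8385 bp in blastocysts, against 1235 and 2758 bp in morulae. EOMES had 4112 and 5144 bp in blastocysts, against 0 and 232 bp in morulae, and HAND1 had 3664 and 7339 bp in blastocysts, against 0 and 0 bp in morulae. For each of these genes, and for GATA2, both blastocyst libraries lay above both morula libraries. The share of all genes that did so was not counted, but 93.6% of all genes tested had a positive difference.

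CDX2 had 0 and 2553 bp in blastocysts, against 457 and 404 bp in morulae, TFAP2C had 1519 and 0 bp in blastocysts, against 0 and 484 bp in morulae, and GATA2 had 1403 and 2237 bp in blastocysts, against 1257 and 238 bp in morulae. TEAD3 had 292 and 0 bp in blastocysts and TEAD4 none. The CDX2 and TFAP2C groups overlapped.

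The blastocyst differences from morulae were 7100.5 ± 560 bp for GATA3 (SE; adjusted p = 1.71e-05, limma), 5719 ± 670 bp for TFAP2A (0.00013), 5501.5 ± 1010 bp for HAND1 (0.0016) and 4512 ± 344 bp for EOMES (1.47e-05). These 4 of 7 rose, beside 59.7% of all genes tested, and none fell, beside 0%. CDX2 (846 bp, 0.375), GATA2 (1072.5 bp, 0.162) and TFAP2C (517.5 bp, 0.494) did not pass, and the 95% interval for CDX2 ran from -863 to 2555 bp. Within 50 kb 7 of 9 rose, beside 70% of all genes tested, with CDX2 at 13154 and 19845 bp in blastocysts, against 2757 and 3806 bp in morulae (0.000523). TFAP2C (907 to 2737 bp in blastocysts) and TEAD4 (959 to 1254 bp) were the 2 that did not pass at 50 kb. The blastocyst lists covered 84.7 and 108.9 Mb, against 10.8 and 13.6 Mb for morulae, and what part that had in the result was not tested. On ranks within a library EOMES and HAND1 rose, 2 of 7 beside 8.99%, and GATA3 (19.2 percentile points, adjusted p = 0.0824, limma) and TFAP2A (3.41, 0.762) did not pass. The rank differences of CDX2, GATA2 and TFAP2C were -40.4, -27.2 and -26.4, opposite in sign to their covered lengths, and did not pass either.

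Blastocysts and MII oocytes, the 2 stages whose lists covered the most of the genome in H3K27me3, differed in how much of it lay at each gene. EOMES averaged 4628 bp in blastocysts and 1822 bp in MII oocytes, a difference of 2806 ± 344 bp (SE; adjusted p = 0.00012, limma), and HAND1 averaged 5501.5 bp in blastocysts and 1512.5 bp in MII oocytes (0.00716). GATA2 fell by 5656 bp (adjusted p = 5.31e-05, limma), CDX2 fell by 5092.5 bp (0.000351), TFAP2C fell by 3742 bp (0.000452) and GATA3 fell by 1519 bp (0.0383). So 2 of 7 rose, beside 45.4% of all genes tested, and 4 of 7 fell, beside 23.6%. TFAP2A averaged 7715.5 bp in blastocysts and 8048.5 bp in MII oocytes (0.688), with an interval of -1868 to 1202 bp for the difference.

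The GATA3 and HAND1 calls did not hold when MII replicate 2 was left out (adjusted p = 0.192 and 0.0728, limma). That of GATA3 was lost in 8 of 13 alternatives, with adjusted p up to 0.921, and that of GATA2 was lost with array weights (0.828). On ranks within a library EOMES (18.02 percentile points, adjusted p = 0.17, limma) and GATA3 (-1.71, 0.854) did not pass, while HAND1 rose, 1 of 7 beside 25.5% of all genes tested, and CDX2, GATA2 and TFAP2C fell, 3 of 7 beside 24.2%. Within 50 kb CDX2 had no call either way, with 16499.5 bp in blastocysts and 17495 bp in MII oocytes on average (0.715). With limma's F test over the 6 stages, all 7 genes tested changed in H3K27me3, beside 81.7% of all genes tested. For a gene that passed the filter only through MII or blastocyst libraries, that outcome was largely fixed in advance. GATA2 did not pass with array weights (adjusted p = 0.951, limma) or on ranks (0.101). The H3K27me3 comparisons share the MII or the blastocyst libraries with one another. Both marks at a place need not lie in the same cell.

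The 2 marks were then laid over each other. Within 5 kb of the ends, DNA under both marks in all 4 libraries of the MII stage came to 4200 bp at CDX2, 3152 bp at GATA3, 2486 bp at TFAP2C, 1987 bp at TFAP2A, 1202 bp at GATA2 and 806 bp at EOMES. HAND1, TEAD3 and TEAD4 had 0 bp. In 2-cell, 4-cell and 8-cell embryos no gene of the 9 had any. Only GATA2 at the 4-cell stage (723 bp) had H3K27me3 common to both libraries there, so elsewhere no overlap could be found. In morulae DNA under both marks came to 600 bp at TFAP2A and 238 bp at GATA2, and 0 bp at the others. In blastocysts it was 5628 bp at TFAP2A, 2611 bp at EOMES, 1168 bp at GATA2, 518 bp at HAND1 and 200 bp at GATA3, and 0 bp at CDX2, TFAP2C, TEAD3 and TEAD4.

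The 0 bp at CDX2 and TFAP2C in blastocysts rests on 1 H3K27me3 library each, since CDX2 had 0 bp of H3K27me3 in replicate 1 and 2553 bp in replicate 2, and TFAP2C had 1519 bp in replicate 1 and 0 bp in replicate 2. Over the gene and 50 kb to either side, H3K27me3 common to both libraries came to 12104 bp around CDX2 in blastocysts, of which 5.2% also carried H3K4me3 in both libraries, against 12562 bp in MII oocytes, of which 35.6% did. None of it lay in CDX2 or within 5 kb of its ends in blastocysts, against 6457 bp in MII oocytes. FLT3, PDX1 and URAD have an end within 50 kb of CDX2. At GATA3 the H3K27me3 common to both libraries came to 21269 bp in blastocysts, of which 20.3% also carried H3K4me3, against 37695 bp in MII oocytes, of which 18.7% did. At TFAP2A it came to 12122 bp in blastocysts, of which 61.9% did, against 17494 bp in MII oocytes, of which 26.1% did. At GATA3 in blastocysts the wide H3K27me3 peak began at chr10:63394204 in replicate 1 and chr10:63393857 in replicate 2, and the wide H3K4me3 peak ended at chr10:63394403 and chr10:63394520, so the 2 met within the gene. At HAND1 the widest H3K27me3 peak lay to the lower-coordinate side of the gene in both blastocyst libraries, whereas the widest H3K4me3 peak met the gene in both. With all peaks counted, H3K27me3 covered 71.7% of the HAND1 gene body on average in blastocysts, against 18.8% for H3K4me3.

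The 9 genes were compared with one another by the Pearson correlation of 5 kb H3K4me3 over the 16 stage libraries, which share their differences in total coverage. GATA2 and TFAP2A were the most alike pair (r = 0.919), followed by CDX2 and TFAP2A (0.770) and EOMES and HAND1 (0.765). TEAD4 and HAND1 were the least alike (-0.683), and TEAD4 and EOMES came next (-0.671). These are descriptions over 16 libraries that fall into 8 stages, without a test.

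Among all coding genes with no end within 100 kb of the member, the most alike over the same 16 libraries were GBX1 (r = 0.908) and CNN3 (0.899) for CDX2, ECH1 (0.982) and SLC28A3 (0.981) for TEAD3 and PPAG3 (0.901) and LOC106504317 (0.901) for TEAD4. They were TFAP2A (0.919) and NOTCH3 (0.888) for GATA2, and GATA2 (0.919) and SCRT1 (0.882) for TFAP2A. They were C1QTNF8 (0.955) and RAB40B (0.950) for GATA3, BPTF (0.926) and MYLK4 (0.920) for TFAP2C, HOXB3 (0.934) and OPN5 (0.932) for EOMES, and PEX14 (0.928) and DHRS3 (0.927) for HAND1. Apart from GATA2 and TFAP2A, no gene of the 9 was among the 2 most alike genes of another.

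The wider pathway was read from 47 further genes of the trophoblast and the Hippo pathway, of which 46 passed the H3K4me3 filter. Between blastocysts and MII oocytes 25 of 46 rose, beside 39.8% of all genes tested, and none fell, beside 4.7%, with a median difference of 2441.75 bp, against 1263.5 bp over all genes tested. PTGS2, the inducible prostaglandin synthase, averaged 9112 bp in blastocysts and 297.5 bp in MII oocytes (adjusted p = 5.18e-07, limma). The homeobox gene MSX2 averaged 10001 bp in blastocysts and 2329 bp in MII oocytes (5.68e-05), the epithelial keratin gene KRT18 9294 bp in blastocysts and 1984 bp in MII oocytes (1.71e-05), and WWTR1, which encodes the YAP1 relative TAZ, 7913 bp in blastocysts and 1461 bp in MII oocytes (1.23e-05).

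Between blastocysts and 4-cell embryos 28 of the 46 rose, beside 29.3% of all genes tested, and none fell, beside 0.267%, with a median difference of 3075.25 bp, against 1019.5 bp over all genes tested. ELF3, an epithelial ETS factor, averaged 8528.5 bp in blastocysts and 1086 bp at the 4-cell stage (0.0014, limma). Between 4-cell and 2-cell embryos 6 of the 46 fell, a share near the 11.5% of all genes tested, and none rose, beside 0.244%. PLET1, KRT19, OVOL1 and DLX3 had the largest of these differences, with PLET1, a placenta-expressed gene, at 424 bp at the 4-cell stage and 5975 bp at the 2-cell stage (0.00775, limma).

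In siKDM5BC embryos 23 of the 46 rose relative to 4-cell embryos, beside 38.5% of all genes tested, and none fell, beside 0.0581%, with a median difference of 2543 bp, against 1521 bp over all genes tested. KRT19, another epithelial keratin gene, averaged 9462 bp in siKDM5BC embryos and 1723 bp in 4-cell embryos (adjusted p = 4.66e-05, limma). OVOL1, which encodes a zinc-finger factor of epithelia, averaged 8865 bp in siKDM5BC embryos and 2345 bp in 4-cell embryos (0.00105), PLET1 6736.5 bp in siKDM5BC embryos and 424 bp in 4-cell embryos (0.00077), and TFAP2B 7728 bp in siKDM5BC embryos and 1776 bp in 4-cell embryos (0.00417). Of 23 pluripotency genes 15 rose in siKDM5BC embryos, of 18 hypoblast genes 6, of 8 cumulus and granulosa genes 2 and of 7 oocyte genes 2, beside 38.5% of all genes tested, and none of these lists had a gene that fell.

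For H3K27me3, 27 of the 47 genes passed the filter, which favours genes covered in MII or blastocyst libraries. Of these 18 fell between 2-cell embryos and MII oocytes, beside 38% of all genes tested, and none rose, beside 0%. ASCL2, a trophoblast basic helix-loop-helix gene, averaged 0 bp in 2-cell embryos and 10001 bp in MII oocytes (adjusted p = 3.38e-05, limma), and GRHL1, a grainyhead factor of epithelia, 0 bp in 2-cell embryos and 7880 bp in MII oocytes (1.9e-05).

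Between blastocysts and morulae 17 of the 27 rose, a share near the 59.7% of all genes tested, and none fell, beside 0%. VGLL1, which encodes a TEAD cofactor, averaged 5306.5 bp in blastocysts and 1088.5 bp in morulae (0.000754, limma), and the nuclear receptor gene PPARG 3963 bp in blastocysts and 0 bp in morulae (5.03e-06). Between blastocysts and MII oocytes 7 of the 27 rose, beside 45.4% of all genes tested, and 7 fell, beside 23.6%, and GRHL1 (0 bp in blastocysts and 7880 bp in MII oocytes, 1.39e-05) and DLX3 (765.5 bp in blastocysts and 7049.5 bp in MII oocytes, 1.69e-05) had the largest falls.

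H3K4me3 of blastocysts was also read at genes of pluripotency and the hypoblast. A peak within 5 kb was present at 21 and 21 of 23 pluripotency genes and 17 and 17 of 19 hypoblast genes. Of all coding genes, 84.0% and 84.0% had one. Relative to MII oocytes 12 of 23 pluripotency genes rose and 1 fell, and of 18 hypoblast genes 4 rose and 2 fell, beside 39.8% higher and 4.7% lower over all genes tested. The median difference was 2678 bp over the pluripotency genes and 207.5 bp over the hypoblast genes, against 1263.5 bp over all genes tested. Of the cumulus and granulosa genes 1 of 8 rose and none fell, and of the oocyte genes 2 of 7 rose and 1 fell, beside the same shares of all genes.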

How the data were processed

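The series holds H3K4me3 and H3K27me3 profiles of pig oocytes and embryos, 30 libraries in 15 groups of 2. Reads were aligned with Bowtie2 2.4.1 and peaks called with MACS2 on susScr11, per the submitters' processing notes; no source used here gives the MACS2 version, threshold or input. The deposited files are 1 list of broad peaks per library, with positions (0-based start), a peak score, the fold enrichment over the caller's background, and the −log10 p and q of each peak, all made by the authors' caller. A called length depends on depth and threshold, and depth is unknown.

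From these, the bases under peaks were summed within 5 kb (10001 bp) and 50 kb (100001 bp) of each end of every RefSeq coding gene, and the better covered end was taken. Groups were compared by limma 3.58.1 in R 4.3.3 (lmFit, eBayes with trend) on the linear scale over all libraries of a mark, for genes averaging 250 bp or more. That left 17206 genes for H3K4me3 and 5829 for H3K27me3 at 5 kb, and p-values were BH-adjusted over them, with a threshold of 0.05. An exact permutation test of 2 against 2 libraries cannot go below 0.333. The fit was tested on simulated data. Named genes outside the 9 are the 4 with the largest difference that passed in each comparison, of each list, or fewer. The most alike genes are the 2 with the highest correlation. The 9 genes and the lists were chosen with earlier results of these data known. Alternatives were other windows, scales, filters and designs, and leaving out each library. Replicate numbers were not shown to pair libraries, and the main fit took them as unpaired. Tables were read with Python 3.11.15.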

Additional observations from a re-analysis of the deposited data

How the results depend on the processing

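Over the 9 genes, 517 of the differences recomputed under another setting kept their side of the threshold, 25 of them with the opposite sign and no call in either. A further 67 lost and 40 gained a call, and 13 turned sign with a call on at least one side. Leaving out a library, 416 kept their side of the threshold, 4 of them with the opposite sign and no call, 33 lost and 7 gained a call. On ranks within a library the count of genes called was 3 for H3K4me3 in blastocysts against MII oocytes (1 higher, 2 lower) and 3 against 4-cell embryos (1 higher, 2 lower), 0 for 4-cell against 2-cell and 0 for siKDM5BC against 4-cell, and for H3K27me3 3 in 2-cell against MII 2 in blastocyst against morula and 4 in blastocyst against MII (1 higher, 3 lower). Called differences that changed sign on ranks were GATA2 in blastocyst minus MII (-3.88), and TFAP2A (-0.045) and HAND1 (-1.32) in siKDM5BC minus 4-cell; 17 others changed sign on ranks with no call on either scale. With only peaks of −log10 q of 3 or more, H3K4me3 gave 3 calls for 4-cell against 2-cell (3 higher) and 7 for blastocyst against 4-cell (6 higher, 1 lower). H3K27me3 then gave 1 for 2-cell against MII, 1 for blastocyst against morula, 2 for blastocyst against MII and 2 over the stages. Sign changes there with a call on either side were GATA3 (1485.5 bp) and EOMES (2749.5 bp) in blastocyst minus MII, GATA3 (2675.5 bp), EOMES (4225.5 bp) and HAND1 (1770 bp) in 4-cell minus 2-cell, and TEAD3 (-577.5 bp) in siKDM5BC minus 4-cell, where TEAD4 had no such peak in either group (0 bp). Within 50 kb the count was 3 for 4-cell against 2-cell, 6 for blastocyst against 4-cell and 7 for H3K27me3 in blastocyst against morula. Over the whole gene, chosen after seeing the data, it was 2 for 4-cell against 2-cell and 7 for blastocyst against 4-cell. GATA3 turned positive at 50 kb (14097 and 28906 bp) and over the whole gene (20.7 and 32.0 percentage points) in blastocysts against MII and against 4-cell. Array weights gave 6 for blastocyst against 4-cell and ended the H3K27me3 calls of GATA2 in 2-cell minus MII (adjusted p = 0.689, limma), in blastocyst minus MII (0.828) and over the stages (0.951), and a fit with only the groups compared gave 0 for 4-cell against 2-cell. The cause of these changes was not tested.

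Leaving out 1 library gave 6 to 9 H3K4me3 calls over the stages, 2 to 4 for blastocyst against MII, 0 to 1 for 4-cell against 2-cell, 1 to 3 for blastocyst against 4-cell and 3 to 6 for siKDM5BC against 4-cell; a lone library left in a group is taken to vary like the others. The H3K27me3 counts were 6 throughout for 2-cell against MII, 4 to 5 for blastocyst against morula and 4 to 6 for blastocyst against MII. Replicate numbers were not shown to pair libraries, since deviations of same-numbered libraries correlated between -0.153 and 0.238 over 36 pairs of H3K4me3 groups and between -0.0719 and 0.0973 over 15 pairs of H3K27me3 groups. With the replicate block, blastocyst against MII gave 4 H3K4me3 calls and lost GATA2 and GATA3; 4-cell against 2-cell gave 1, blastocyst against 4-cell 3 and siKDM5BC against 4-cell 6. A measure at the transcription start alone was not run, as strand was not given.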
